A study of Mus musculus with 10 samples.

Results

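The open chromatin regions (OCRs) of the Rora gene were compared across group 2 innate lymphoid cells (ILC2s) from 5 mouse tissues. An OCR was counted as belonging to Rora if its centre lay inside the gene or if its nearest RefSeq transcription start site (TSS) was one of Rora's, and 53 of the 50039 OCRs of the study met this rule. All 53 were centred inside the gene. Rora had the nearest TSS for 26 of them, and 27 had a nearer TSS of a long non-coding RNA gene located in or at the Rora locus. No OCR outside the gene had its nearest TSS at Rora.

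Rora encodes RORα, a nuclear receptor that binds DNA mostly as a monomer at a short element preceded by an A/T-rich stretch. ILC2 development depends on it, together with GATA3 and other transcription factors, and in other tissues RORα acts in the circadian clock, where it shares binding sites with the REV-ERB repressors. Group 2 innate lymphoid cells are tissue-resident lymphocytes without antigen receptors that produce type 2 cytokines, and ATAC-seq reads out which DNA in their nuclei a transposase can enter.

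ATAC-seq libraries were made from ILC2s sorted from small intestine (SI), large intestine (LI), pancreas, lung and bone marrow (BM) of male C57BL/6 mice aged 6 weeks, with 2 libraries per tissue and 10 in all. Each library came from 50000 pooled cells. The study pooled 16 mice for BM, pancreas and lung and 10 for SI and LI, so the replicate error is the spread between pools. BM ILC2s were sorted as lineage-negative ST2+CD25+ cells, ILC2s of LI, lung and pancreas as lineage-negative CD45+CD127+ST2+CD25+ cells, and SI ILC2s as lineage-negative CD127+CD45+KLRG1+ cells with a reduced level of Thy1. The gate, the number of mice per pool and, for BM, the cell sorter changed with the tissue and cannot be told apart from it. In bulk cells a smaller share of cells with an open region cannot be told apart from less accessibility per cell.

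Total counts over all OCRs ranged from 10282987 to 32797872 per library, of which the Rora OCRs took 0.0836% to 0.130%. The median Rora OCR held 113 to 605 counts in a library, and the lowest single count was 12. Levels are given below as CPM, the counts relative to the total of all OCR counts in a library scaled by edgeR's TMM factors (0.863 to 1.11). Of 8 ILC2 marker genes, 7 had a promoter OCR and Thy1 had none, and the Gata3 promoter was open in every library at 41.8 to 56.6 CPM. The promoter of Il1rl1, which encodes ST2, averaged 2.94 CPM in SI and 6.53 in LI against 17.8 to 21.1 in the other tissues, and that of Klrg1 averaged 8.14 in BM against 29.5 to 54.2 elsewhere. Of 24 marker genes of T, B, myeloid, mast, other innate lymphoid, epithelial and progenitor cells, 19 had no promoter OCR. Since Thy1 had none either, this does not show that such cells were absent. The promoters of Cd3e, Cd3g, Spi1 and Cdh1 stayed at or below 9.49 CPM in every library. In SI their means of 3.40 to 5.74 CPM lay above that of Il1rl1. The Kit promoter ranged from 46.7 to 74.9 CPM.

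Rora lies on the plus strand at chr9:68653404-69388246 (mm10, GRCm38) and is 734.843 kb long. RefSeq places the promoter of transcript variant 1 at the 5′ end of the gene and that of variant 2 a further 636.055 kb downstream in an intron of variant 1. With 53 OCRs, Rora held the most of the 227 protein-coding genes over 500 kb, followed by Inpp4b with 46 and Foxp1 with 45. No OCR lay at the variant 1 promoter: the closest was region 1, centred 34940 bp downstream. The variant 2 promoter was covered by region 39, whose centre was 1 bp from the TSS. The 53 OCRs, numbered here in the direction of transcription, all lay in introns of variant 1, with 37 in intron 1, 12 in intron 2, 3 in intron 3 and 1 in intron 5. Region 39 was the one OCR at a Rora promoter, and region 43 lay at the TSS of the long non-coding RNA gene Gm46153. The widths were 500 to 1159 bp, with a median of 539 bp against 532 bp for all OCRs.

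Sequences are shown for the promoter and for 5 intronic OCRs on which the tissue differences below turn. They are the plus strand of the RefSeq GRCm38 chromosome 9, from the 300 bases before the variant 2 TSS and from the central 300 bases of each OCR. Capitals mark matches on either strand to 7 short motifs: AGATAA for GATA factors, TAGGTCA or its variant TGGGTCA for the ROR element, TGANTCA for AP-1, TGTGGTT for RUNX factors, TNGCGTG for AHR, GGGCGG for SP and KLF factors, and CAGGAAG for ETS factors.
Variant 2 promoter, chr9:69289541-69289840: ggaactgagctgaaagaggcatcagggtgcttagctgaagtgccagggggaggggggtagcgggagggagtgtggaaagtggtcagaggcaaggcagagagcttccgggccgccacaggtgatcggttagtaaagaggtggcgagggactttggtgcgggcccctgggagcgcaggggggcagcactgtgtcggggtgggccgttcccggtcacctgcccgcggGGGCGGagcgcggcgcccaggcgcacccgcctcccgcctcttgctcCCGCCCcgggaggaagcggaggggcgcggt
Region 14, chr9:68970171-68970470, low in BM and SI: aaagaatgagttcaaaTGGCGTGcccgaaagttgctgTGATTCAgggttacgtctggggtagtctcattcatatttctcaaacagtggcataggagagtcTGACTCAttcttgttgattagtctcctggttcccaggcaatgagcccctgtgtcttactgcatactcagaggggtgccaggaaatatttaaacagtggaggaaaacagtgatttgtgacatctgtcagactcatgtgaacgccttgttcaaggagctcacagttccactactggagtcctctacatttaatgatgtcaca
Region 17, chr9:69000364-69000663, low in SI: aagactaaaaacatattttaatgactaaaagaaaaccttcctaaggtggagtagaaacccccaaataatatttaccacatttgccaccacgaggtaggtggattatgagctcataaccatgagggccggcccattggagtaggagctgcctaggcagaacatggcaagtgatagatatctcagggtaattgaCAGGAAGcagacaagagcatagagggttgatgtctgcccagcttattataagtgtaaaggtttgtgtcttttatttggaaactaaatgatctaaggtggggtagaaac
Region 30, chr9:69121222-69121521, high in BM: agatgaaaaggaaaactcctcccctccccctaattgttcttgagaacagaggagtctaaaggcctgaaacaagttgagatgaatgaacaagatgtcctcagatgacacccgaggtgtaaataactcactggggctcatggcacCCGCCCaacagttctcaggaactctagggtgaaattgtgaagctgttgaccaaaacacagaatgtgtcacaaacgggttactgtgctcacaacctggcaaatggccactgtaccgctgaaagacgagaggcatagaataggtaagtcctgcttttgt
Region 37, chr9:69174750-69175049, high in pancreas and low in SI: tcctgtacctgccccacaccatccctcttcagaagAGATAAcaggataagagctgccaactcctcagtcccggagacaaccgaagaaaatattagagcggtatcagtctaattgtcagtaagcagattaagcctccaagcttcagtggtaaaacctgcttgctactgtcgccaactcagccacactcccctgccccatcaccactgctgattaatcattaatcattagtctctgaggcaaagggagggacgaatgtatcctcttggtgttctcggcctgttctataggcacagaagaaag
Region 45, chr9:69314477-69314776, low in BM: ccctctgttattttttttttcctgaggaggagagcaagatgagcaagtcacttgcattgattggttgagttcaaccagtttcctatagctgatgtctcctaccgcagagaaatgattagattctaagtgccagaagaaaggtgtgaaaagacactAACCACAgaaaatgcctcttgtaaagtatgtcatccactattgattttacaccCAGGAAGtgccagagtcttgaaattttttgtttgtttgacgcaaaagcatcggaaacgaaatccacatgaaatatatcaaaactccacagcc
The promoter window held 2 SP/KLF matches and none to the other motifs. Region 14 held 2 AP-1 matches and 1 AHR match, region 37 held 1 GATA match, and region 45 held 1 RUNX and 1 ETS match.

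A GATA match was present in the central 300 bases of 22 of the 53 Rora OCRs (41.5%), against 17.2% of all OCRs and 19.6% of the OCRs inside genes. The ROR element occurred in 6 Rora OCRs (11.3%, against 7.79% of all), namely regions 3, 11, 22, 43, 46 and 53. AP-1 matches were found in 26.4% of Rora OCRs and 18.3% of all OCRs, and RUNX matches in 17% and 13%. SP/KLF matches, typical of CpG-rich promoters, were found in 13.2% of Rora OCRs against 25.4% of all OCRs and 16.4% of those inside genes. The ETS share was 15.1% against 19.9% and the AHR share 5.66% against 5.20%. These shares describe letters in the windows, whose median GC content was 47% for Rora and 50.7% for all OCRs. No motif of the set is contained in another, and the AP-1 motif reads the same on both strands.

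The level of single OCRs spanned a wide range along the gene. The highest was region 48 (chr9:69339793-69340908) in intron 2, which measured 131 and 137 CPM in BM, 105 and 129 in lung, 99.2 and 135 in LI, 147 and 107 in pancreas and 90.0 and 110 in SI. Both BM libraries lay above those of lung and SI, the other tissues overlapped, and edgeR's quasi-likelihood F-test over the 5 tissues gave an adjusted p of 0.454. Region 20 (chr9:69034271-69034822) in intron 1 averaged 101 CPM over the 10 libraries and region 42 (chr9:69304338-69304851) in intron 2 averaged 96.8 CPM. The OCRs farthest from any Rora TSS were region 9 (chr9:68932558-68933215), 263192 bp away, and region 8, 246652 bp away. Region 9 measured 19.2 and 14.9 CPM in BM, 20.0 and 28.5 in lung, 19.9 and 17.4 in LI, 24.8 and 19.3 in pancreas and 12.5 and 16.9 in SI, and its adjusted p over the tissues was 0.114 by the same test.

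**Figure D1:**
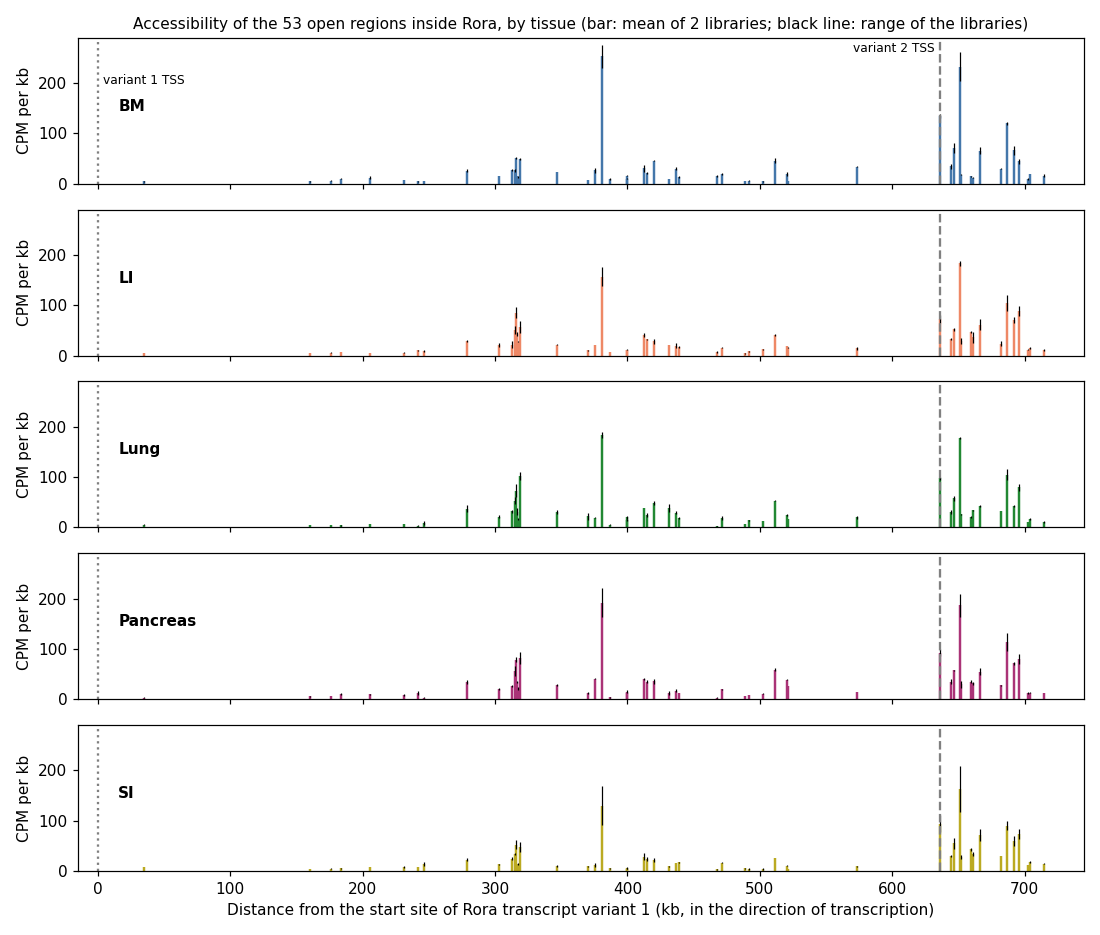
Mean accessibility in CPM per kb of OCR (vertical axis) against the distance in kb from the variant 1 TSS (horizontal axis) for the 53 Rora OCRs, with 1 panel per tissue and a black line for the range of the 2 libraries. No bar stands at the variant 1 TSS (dotted line), and region 39 stands at the variant 2 TSS (dashed line). The 38 OCRs between these lines had the lowest summed level in SI, at 366 CPM against 516 to 600 in the other tissues. SI had the lowest mean at 20 of the 38 and the highest at 3.

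Accessibility differed among the 5 tissues at 30 of the 53 Rora OCRs (56.6%), and at 44.2% of all OCRs, by edgeR's quasi-likelihood F-test with Benjamini-Hochberg adjustment over all 49981 OCRs tested. The same share was 57.4% for the 584 OCRs of the other 33 protein-coding genes over 500 kb with 10 or more OCRs. Of the 38 OCRs before the variant 2 promoter, 25 differed among tissues, and of the 15 from that promoter to the gene end, 5 did. The ratio of the highest to the lowest tissue mean had a median of 2.00 for Rora and 1.90 for all OCRs, and ran from 1.16 at region 51 to 8.14 at region 30. The 5 OCRs with the smallest p were regions 37, 44, 27, 30 and 38, each described below.

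**Figure D2:**
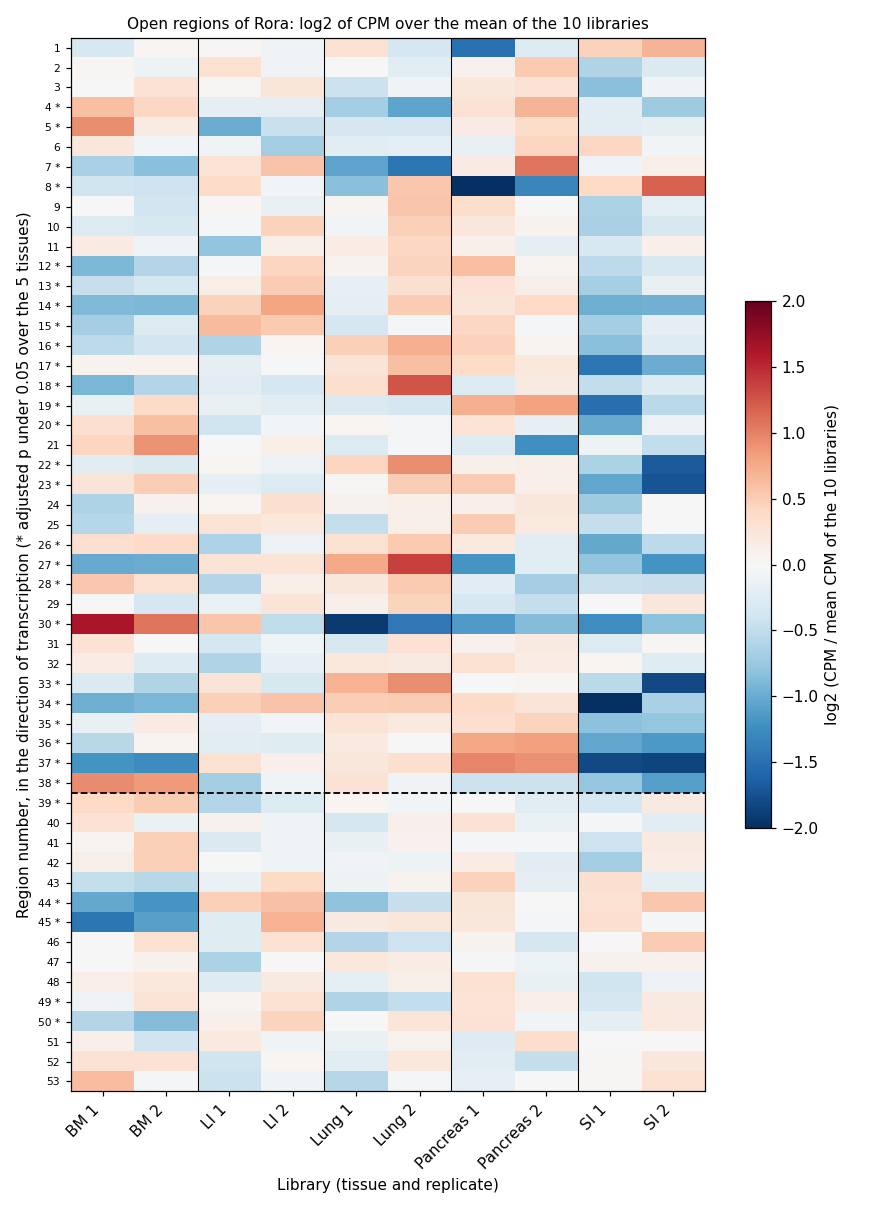
Log2 of the CPM of each Rora OCR (rows, in the direction of transcription) over its mean across the 10 libraries (columns), with red for higher and blue for lower and the dashed line at the variant 2 promoter. The 30 starred OCRs differed among tissues, and 25 of them stand above the dashed line.

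SI ILC2s had the lowest accessibility at much of the locus. SI had the lowest tissue mean at 23 of the 53 OCRs, against 20.3% of all OCRs, and the highest at 4, against 24% of all OCRs. In the pairwise contrasts of the same fit, 17 Rora OCRs were higher in lung than in SI (9.86% of all OCRs) and 3 were lower (11.1%), and 12 were higher in pancreas than in SI (12% of all OCRs) and 2 lower (8.45%). Between LI and SI 9 were higher in LI (6.9%) and 0 lower (1.53%), with 0 lower also at an unadjusted p under 0.05 and by DESeq2, and between BM and SI 10 were higher in BM (10.7%) and 4 lower (15.1%). The median log2 difference over the 53 OCRs was 0.35 for pancreas over SI, 0.27 for LI over SI, 0.23 for lung over SI and 0.18 for BM over SI, where the medians of all OCRs lay between -0.06 and 0.00. Scaling by library size alone moved the median of all OCRs by -0.24 for LI and pancreas over SI and by -0.20 for BM over SI. The counts of Rora OCRs higher than in SI were then 14 for lung, 9 for pancreas, 7 for BM and 5 for LI, against 2, 2, 4 and 0 lower. The shares of all OCRs above were taken with TMM factors and are no background for these counts. With library size alone 48.7% of all OCRs differed among tissues in the F-test, against 44.2% with TMM factors.

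The low SI level was seen before the variant 2 promoter and not after it. Summed over the 38 OCRs of that stretch, SI measured 315 and 418 CPM, BM 508 and 549, LI 471 and 561, lung 552 and 648, and pancreas 624 and 556. Both SI libraries lay below the other 8. Over the 15 OCRs from the variant 2 promoter on, SI measured 459 and 596 CPM, within the 478 to 614 CPM of the other libraries except for the lower one.

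The log2 ratio of the first sum to the second, which does not depend on how libraries are scaled, was -0.54 and -0.51 in SI, -0.10 and -0.12 in BM, 0.21 and 0.28 in lung, -0.08 and -0.10 in LI, and 0.02 and 0.16 in pancreas. SI stood below all others and lung above all others, while BM and LI overlapped. With library size alone the first sum was 345 and 460 CPM in SI and 406 CPM in the lower LI library, so that those 2 tissues overlapped. The boundary at the variant 2 promoter was chosen after the values were seen. With the boundary at the most 3′ RefSeq TSS, which leaves 48 and 5 OCRs, the mean of the first sum was 794 ± 151 CPM (SD, n = 2) in SI and 955 to 1040 CPM in the other tissues, and the lower LI library at 869 CPM fell below the higher SI library at 901 CPM.

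**Figure D3:**
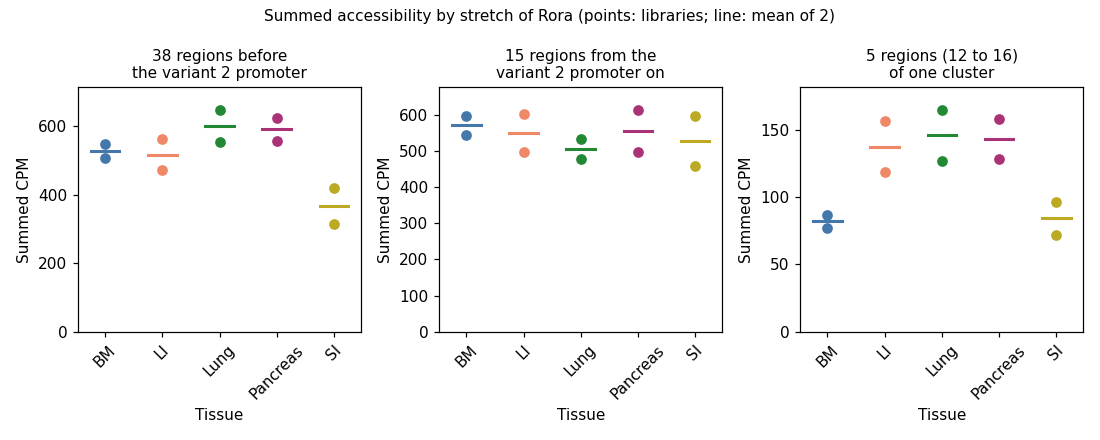
Summed CPM (vertical axis) of the Rora OCRs before the variant 2 promoter, of those from it to the gene end, and of regions 12 to 16, by tissue (points are the 2 libraries, lines their mean). Both SI points lie lowest in the first panel at 315 and 418 CPM, the tissues overlap in the second, and BM and SI lie below the other 3 tissues in the third.

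Summed over all 53 OCRs, accessibility was highest in pancreas with 1146 ± 130 CPM, followed by lung with 1105 ± 106, BM with 1099 ± 67.3, LI with 1066 ± 137 and SI with 894 ± 170 (SD, n = 2 each). Neighbouring tissues in this order overlapped in the ranges of their libraries. Per kb of OCR the means ran from 37.2 CPM in pancreas to 29.0 in SI.

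By the definition used in the study, an OCR is commonly decreased in a tissue if it is lower there than in each of the other 4. Each of the 4 unadjusted p-values must also be under 0.05. The study took these p-values from DESeq2 comparisons of pairs of tissues, and here they come from the edgeR fit of all 10 libraries. In SI 7 Rora OCRs met the definition, where the share among all OCRs was 3.59%. They were regions 17, 19, 22, 23, 35, 36 and 37, all in intron 1, within 174.934 kb that hold 21 Rora OCRs. Of these 7, 4 held a GATA match and 1, region 22, the ROR element.

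Region 17 (chr9:69000235-69000791) measured 4.62 and 6.34 CPM in SI, 13.3 and 13.3 in BM, 15.1 and 19.2 in lung, 11.2 and 12.6 in LI and 16.3 and 14.7 in pancreas. The 2 SI libraries stood apart from the rest, at log2 differences of -1.11 ± 0.25 (SE) from LI to -1.64 ± 0.25 from lung, and the largest of the 4 adjusted p was 0.0107 by edgeR's quasi-likelihood test. Region 23 (chr9:69053521-69054046) measured 3.08 and 1.92 CPM in SI, 7.59 and 8.93 in BM, 6.47 and 8.94 in lung, 5.58 and 5.26 in LI and 9.07 and 6.79 in pancreas. Again both SI libraries lay below all others, by -1.13 ± 0.32 from LI to -1.74 ± 0.32 from BM on the log2 scale. These 2 calls held under each of the 20 alternatives tried, although the filter settings among them barely changed the OCRs tested.

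Region 22 (chr9:69052895-69053440), 81 bp before region 23, measured 4.24 and 2.06 CPM in SI, 5.68 and 5.34 in BM, 8.78 and 12.5 in lung, 6.71 and 6.04 in LI and 7.07 and 7.12 in pancreas. Its smallest difference, SI from BM, was -0.82 ± 0.33. Without SI replicate 2 it was -0.38 and the call was lost, as it was without either BM replicate. Region 35 (chr9:69165213-69165754) measured 13.8 and 14.2 CPM in SI, 22 and 27.4 in BM, 29.5 and 27.8 in lung, 21.4 and 23.5 in LI and 30.6 and 33.1 in pancreas. The SI pair was lowest, at -0.68 ± 0.20 from LI, and this call was lost with library size alone (-0.45, unadjusted p = 0.0703 by the edgeR test).

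Pancreas ILC2s had the highest level at regions 36 and 37, which lie 224 bp apart in intron 1. Region 37 (chr9:69174630-69175169) measured 14.5 and 13.9 CPM in pancreas, 8.59 and 9.16 in lung, 9.07 and 7.91 in LI, 3.23 and 3.08 in BM and 2.12 and 2.06 in SI. Replicates differed little, and 4 levels were seen in order, with lung and LI overlapping. Pancreas exceeded SI by 2.77 ± 0.27 on the log2 scale (adjusted p = 5.04e-06 by edgeR's quasi-likelihood test) and lung by 0.68 ± 0.25. Region 36 (chr9:69173796-69174406) measured 23.3 and 24.2 CPM in pancreas, 15.6 and 13.7 in lung, 11.6 and 11.6 in LI, 9.30 and 14.2 in BM and 6.60 and 6.17 in SI. Here too both pancreas libraries lay above and both SI libraries below all others, at 0.70 ± 0.24 over lung and at -0.86 ± 0.25 for SI from LI.

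Both OCRs were tissue-specific for pancreas, that is, higher there than in each other tissue with an unadjusted p under 0.05, as was region 19. The 3 made 5.66% of the Rora OCRs, against 1.43% of all OCRs. All 3 were also commonly decreased in SI. The pancreas call at region 36 was lost without lung replicate 2 and that at region 37 without lung replicate 1, LI replicate 2 or pancreas replicate 1, and both were lost with library size alone (0.44 and 0.43 over lung). The SI call at region 36 was lost without BM replicate 2 (-0.54), and that at region 37, at -0.60 ± 0.28 from BM, was kept in 6 of 20 alternatives.

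Region 19 (chr9:69028873-69029438) measured 22.2 and 23.8 CPM in pancreas, 12.3 and 17.7 in BM, 11.1 and 10.8 in lung, 12.3 and 11.8 in LI and 4.77 and 9.41 in SI. Pancreas was highest and SI lowest without overlap, but its smallest differences, 0.62 ± 0.28 for pancreas over BM and -0.62 ± 0.29 for SI from lung, passed in 11 of 20 alternatives each. Without BM replicate 1 the first was 0.38, and without SI replicate 1 the second was -0.26.

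In the reverse direction, region 8 (chr9:68900188-68900688) was commonly decreased in pancreas, which 0.572% of all OCRs were. It measured 0.942 and 1.62 CPM in pancreas, 3.03 and 2.99 in BM, 2.23 and 5.82 in lung, 5.14 and 3.87 in LI and 5.30 and 9.06 in SI. The 2 pancreas libraries were lowest, with 16 counts in replicate 1, and the log2 difference of pancreas from SI was -2.55 ± 0.49. The call was lost without lung replicate 2 (-0.86), pancreas replicate 1 (-0.89) or either BM replicate. Region 8 was also the OCR with the greatest smallest log2 difference of SI over the other tissues, at 0.69, with a largest unadjusted p of 0.124.

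**Figure D4:**
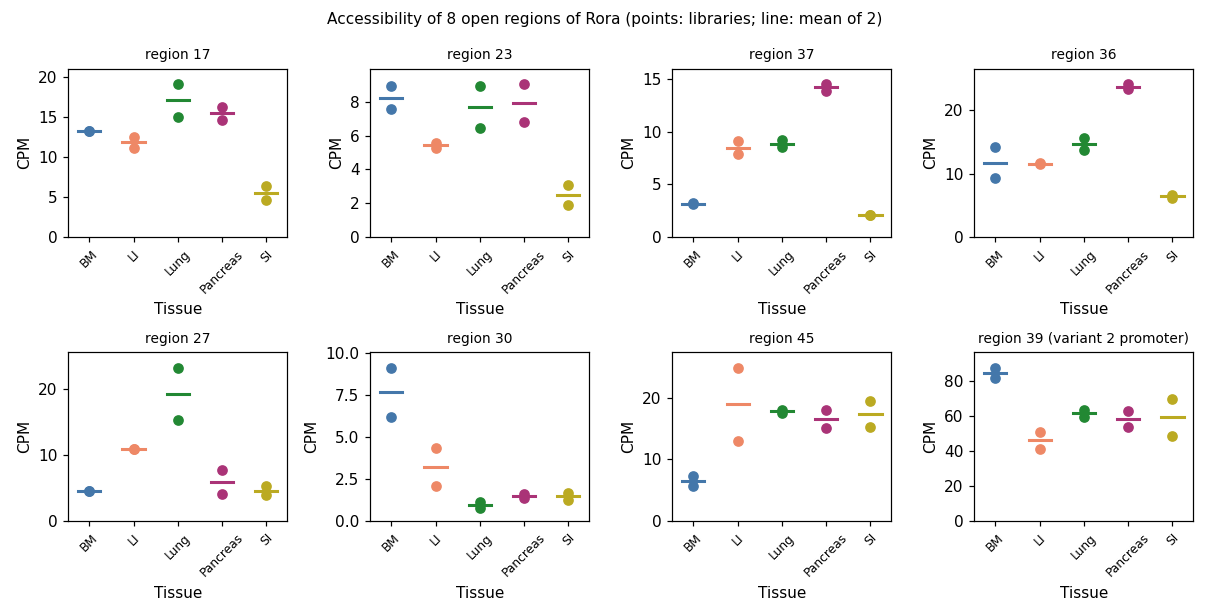
CPM (vertical axis, from 0) of 8 Rora OCRs by tissue, with points for the 2 libraries and lines for their mean. SI lies lowest at regions 17, 23, 36 and 37, pancreas highest at regions 36 and 37, lung highest at region 27, and BM highest at regions 30 and 39 and lowest at region 45.

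Regions 12 to 16, also in intron 1, lay within 4.014 kb, and their sum grouped BM with SI. The summed level was 77.3 and 86.6 CPM in BM and 71.8 and 96.6 in SI, against 127 and 165 in lung, 118 and 156 in LI and 158 and 128 in pancreas. The libraries of BM and SI lay below all others, though with library size alone the higher SI library (106 CPM) passed the lower LI library (102 CPM). All 5 differed among tissues in the F-test, and the cluster was picked with those values in view. The grouping was not seen at each of them, since BM differed from LI by -0.21 ± 0.24 at region 16 and from lung by -0.28 ± 0.27 at region 15, neither past an unadjusted p of 0.05 in the edgeR test.

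Region 14 (chr9:68970062-68970579) measured 7.73 and 7.59 CPM in BM, 7.17 and 7.32 in SI, 12.4 and 20.1 in lung, 19.6 and 24.5 in LI and 16.8 and 18.8 in pancreas. BM and SI lay close together, below every other library. Region 15 (chr9:68970963-68971463) measured 14.2 and 13.2 CPM in LI, 12.2 and 9.06 in pancreas, 7.29 and 8.92 in lung, 5.73 and 7.64 in BM and 5.73 and 8.05 in SI. It was the OCR with the greatest smallest log2 difference of LI over the other tissues, at 0.35, with a largest unadjusted p of 0.222 by the edgeR test.

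LI had neither a tissue-specific nor a commonly decreased Rora OCR, against 1.3% and 0.132% of all OCRs, and SI had no tissue-specific one, against 2.8%. By the size of its smallest difference from another tissue, LI was lowest most clearly at region 5 (chr9:68858843-68859474), with 2.53 and 3.69 CPM in LI, 4.0 and 4.0 in lung, 4.33 and 4.46 in SI, 5.65 and 6.47 in pancreas and 9.64 and 5.66 in BM. LI replicate 1 was the lowest library, and the log2 difference of LI from lung, the smallest in size, was -0.34, with an unadjusted p of 0.325 by the edgeR test. LI also had the lowest mean at region 39, with a difference of -0.33 from pancreas and a largest unadjusted p of 0.122. No Rora OCR was higher, and none lower, in both LI and SI than in each of BM, lung and pancreas, where 2.18% and 0.874% of all OCRs were, and DESeq2 gave 0 for these sets and for the tissue-specific ones of LI and SI as well.

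Lung ILC2s had 2 tissue-specific OCRs, regions 18 and 27, against 1.3% of all OCRs. Region 27 (chr9:69085198-69085710) measured 15.3 and 23.3 CPM in lung, 10.9 and 10.9 in LI, 4.0 and 7.77 in pancreas, 5.25 and 3.94 in SI and 4.50 and 4.56 in BM. The order was lung, LI, then the other 3 overlapping tissues, with lung over BM by 2.09 ± 0.32 (adjusted p = 0.000221 by edgeR's quasi-likelihood test) and over LI by 0.83 ± 0.30. Region 18 (chr9:69023369-69023954) measured 8.98 and 17.1 CPM in lung, 5.89 and 8.09 in pancreas, 6.10 and 5.65 in LI, 5.06 and 5.96 in SI and 3.77 and 4.74 in BM. Both lung libraries were highest, and the lower of them lay close to the higher pancreas library. Without lung replicate 2, the deepest library, the smallest differences were 0.38 at region 18 and 0.49 at region 27 and both calls were lost; region 18 was lost without pancreas replicate 1 and region 27 without either LI replicate.

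Region 49 (chr9:69345475-69346035) was commonly decreased in lung, as were 1.72% of all OCRs. It measured 22.7 and 24.5 CPM in lung, 27.3 and 39.2 in SI, 32.5 and 41.6 in BM, 35.7 and 42.6 in LI and 41.8 and 38 in pancreas. Lung was lowest without overlap, by -0.50 ± 0.21 from SI, a call kept in 12 of 20 alternatives and at -0.20 without SI replicate 2.

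Region 39, the variant 2 promoter (chr9:69289525-69290155), was open in all tissues. It measured 82.0 and 87.8 CPM in BM, 63.6 and 59.4 in lung, 62.7 and 53.7 in pancreas, 48.8 and 69.9 in SI and 41.3 and 51.1 in LI. BM lay above the other 8 libraries, LI lay below lung and pancreas, and SI overlapped with all 3. It was tissue-specific for BM at a smallest log2 difference of 0.47 ± 0.20 over lung, kept in 9 of 20 alternatives, and with library size alone the difference was 0.25 (unadjusted p = 0.306 by the edgeR test). Its 11 lost alternatives included leaving out BM replicate 1 or 2, lung replicate 1 or 2, pancreas replicate 2 or SI replicate 1 (0.30).

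BM had 2 further tissue-specific OCRs, making 3 of 53, where the share among all OCRs was 4.5%. Region 30 (chr9:69121121-69121621) in intron 1 measured 9.15 and 6.21 CPM in BM, 0.784 and 1.1 in lung, 4.36 and 2.09 in LI, 1.35 and 1.62 in pancreas and 1.25 and 1.67 in SI. BM was highest and LI next, and BM exceeded lung by 3.0 ± 0.45 on the log2 scale (adjusted p = 0.000203 by edgeR's quasi-likelihood test) and LI by 1.29 ± 0.42. The call was lost without BM replicate 1 (0.98) or LI replicate 2 (0.81). Lung had the lowest mean here, with a difference of -0.62 from pancreas, the smallest in size, and an unadjusted p of 0.217.

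Region 38 (chr9:69227104-69227916), in intron 2 and the last OCR before the variant 2 promoter, measured 28.5 and 26.7 CPM in BM, 18.2 and 14.1 in lung, 9.24 and 14 in LI, 11.1 and 11 in pancreas and 8.71 and 6.90 in SI. BM stood apart, with 0.77 ± 0.24 over lung and 1.83 ± 0.25 over SI on the log2 scale. The call was lost without lung replicate 2 (0.58) and with library size alone (0.56, unadjusted p = 0.0529 by the edgeR test).

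Downstream of the variant 2 promoter, 3 OCRs were commonly decreased in BM, regions 44, 45 and 50, against 6.63% of all OCRs. Region 45 (chr9:69314362-69314890) measured 5.68 and 7.27 CPM in BM, 17.6 and 18.2 in lung, 13.1 and 25 in LI, 18.1 and 15.2 in pancreas and 19.5 and 15.3 in SI. Its neighbour 146 bp upstream, region 44 (chr9:69313057-69314216), measured 18.2 and 16.3 CPM in BM, 21 and 26.6 in lung, 43.4 and 37.1 in pancreas, 51.3 and 55.5 in LI and 45.5 and 53.3 in SI. BM was lowest at both, but lung lay near BM at region 44 and with the other tissues at region 45.

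At region 45 the BM deficit was -1.37 ± 0.29 from pancreas and -1.57 ± 0.29 from LI (largest adjusted p = 0.00334 by edgeR's quasi-likelihood test). At region 44 it was -1.63 ± 0.20 from LI (adjusted p = 3.17e-05) and -0.46 ± 0.20 from lung. Region 50 (chr9:69349376-69349964) in intron 3 measured 28.6 and 23.6 CPM in BM, 37.5 and 49.4 in SI, 42.7 and 51.0 in lung, 46.0 and 58.4 in LI and 52.5 and 41.5 in pancreas, with BM lowest by -0.74 ± 0.21 from SI. The calls at regions 45 and 50 held under all 20 alternatives, while that at region 44 was lost without BM replicate 2 (-0.39), without lung replicate 2 (-0.30) and after a GC trend was removed (-0.32).

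Against LI, lung and pancreas, but not SI, more Rora OCRs were lower than higher in BM, and the same held among all OCRs. Against LI 11 were lower and 6 higher (20.8% and 11.3%, with 18.3% and 12.6% of all OCRs). The counts were 11 and 4 for lung (20.8% and 7.55%, with 11.5% and 7.56% of all OCRs). For pancreas they were 9 and 4 (17% and 7.55%, with 14.3% and 9.89% of all OCRs). With library size alone the split against lung was 12 and 2, and after the GC trend was removed the splits were 6 lower and 7 higher for LI, 10 and 6 for lung, and 7 and 6 for pancreas, so that the majority against LI turned. The shares of all OCRs belong to the TMM fit of the 10 libraries. After the GC trend was removed 41.6% of all OCRs differed among tissues in the F-test, against 44.2%. Among the remaining contrasts, 4 Rora OCRs were higher in LI than in lung and 2 lower (8.18% and 2.72% of all OCRs), 0 higher in LI than in pancreas (3 at an unadjusted p under 0.05 and 1 by DESeq2) and 1 lower (2.01% and 1.25%), and 2 higher in lung than in pancreas and 5 lower (1.62% and 4.2%). These last splits depended on the scaling, since library size alone gave 3 and 5, 1 and 1, and 4 and 1. In all, 8 calls were tissue-specific (11.3% of all OCRs) and 12 were commonly decreased (12.7% of all OCRs), on 17 OCRs. With an adjusted p under 0.05 asked of each contrast, 2 and 6 were left.

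At the ends of the gene, the next OCR beyond the 3′ end (chr9:69388846-69389346), 850 bp past it and nearest to the TSS of Ice2, measured 2.99 to 6.95 CPM. The next one upstream (chr9:68421971-68422595), 231121 bp before the gene, measured 2.21 to 11.7 CPM. Inside the gene, the first OCR, region 1 (chr9:68688459-68688993), measured 1.00 to 4.53 CPM, and the last, region 53 (chr9:69368001-69368528), 4.59 to 10.4 CPM. Neither end OCR of the gene differed among tissues (adjusted p = 0.153 and 0.320 by edgeR's F-test).

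The genes on either side of Rora (C2cd4b, C2cd4a, Vps13c, Ice2, Anxa2 and Foxb1) had 8 OCRs by nearest TSS. Of these 8, 2 differed among tissues (25%), 0 were tissue-specific and 3 were commonly decreased. Among all OCRs 44.2% differed, 11.3% were tissue-specific and 12.7% were commonly decreased. For the other ROR and REV-ERB receptors and their coregulators, 27 of 60 OCRs of 14 genes differed among tissues (45%, against 44.2% of all OCRs), with 5 tissue-specific and 5 commonly decreased. The 5 tissue-specific OCRs included 3 of Nrip1, a corepressor of nuclear receptors, in SI. One of them exceeded the other tissues by 0.84 or more on the log2 scale (largest adjusted p = 0.0411 by edgeR's quasi-likelihood test). An OCR of Ncor1, also specific to SI, did so by 1.48 or more, with a largest adjusted p of 0.137 by the same test.

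Of the OCRs of core clock genes, many of which carry binding sites of RORs and REV-ERBs, 15 of 36 differed among tissues (41.7%, against 44.2% of all OCRs). Of the 36, 3 were commonly decreased (12.7% of all OCRs) and 5 tissue-specific (11.3%). Those for BM included an OCR of Dbp, a clock output factor, at 0.63 or more above each other tissue (largest adjusted p = 0.0193), and one of Per1, a clock repressor, at 0.62 or more (largest adjusted p = 0.0236), both by edgeR's quasi-likelihood test. An OCR of Arntl, which encodes BMAL1, was tissue-specific for LI at 1.13 or more, with a largest adjusted p of 0.204. Among 14 transcription factor genes of ILC2 development, 78 of 148 OCRs differed (52.7%, against 44.2% of all OCRs). Of the 148, 19 were tissue-specific (11.3% of all OCRs) and 32 commonly decreased (12.7%). An OCR of Gata3 was highest in LI by 1.93 or more (largest adjusted p = 0.00317), and one of Zbtb16, which encodes PLZF, was highest in BM by 1.35 or more (largest adjusted p = 0.00858). One of Runx3 was highest in SI, also by 1.93 or more (largest adjusted p = 0.00852 by the same test).

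The summed Rora level over the 10 libraries was compared by Pearson's r with that of each of 2197 genes with 5 or more OCRs. The 5 most alike were Gm42147 (r = 0.95), Atp2b1 (0.94), Pou5f1-rs9 (0.93), Gm24492 (0.93) and Areg (0.92), where the median r over genes was 0.20 and the 99th percentile 0.86. The values share libraries, depth and scaling. Areg, which encodes the growth factor amphiregulin made by ILC2s, summed to 46.7 CPM in SI and to 68.0 to 85.8 CPM in the other tissues over 5 OCRs. Among the Rora OCRs themselves, r over the 10 libraries had a median of 0.14 and ran from -0.89 to 0.97.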

How the data were processed

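ATAC-seq measured chromatin accessibility in 10 libraries. The authors mapped reads to mm10 with Bowtie2 2.2.9, filtered them with SAMtools 1.8, called peaks with MACS2 2.1.1 and merged them into 1 set, and the deposited table gives raw read counts per OCR and library, with coordinates printed as deposited (versions from the submitters' processing notes).

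OCRs were annotated against RefSeq GRCm38. Counts of the 49981 OCRs with at least 1 count were fitted with edgeR 4.0.16 (R 4.3.3, TMM factors, quasi-likelihood tests, tissue as the only term, all 10 libraries), and p-values were adjusted by Benjamini-Hochberg over all OCRs tested; 58 OCRs without a count were left out. The fit was tested on simulated counts with differences set in BM only, at a fixed spread that was not taken from these pools. Errors are SEs of the fit or SDs of 2 libraries, and with 2 pools per tissue p-values measure the spread between pools. Likeness used log2(summed CPM + 1).

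Named OCRs were the promoter OCR, the highest, the 2 farthest from a TSS, the 5 with the smallest p, the extremes of each tissue and every tissue-specific or commonly decreased OCR. Regions 14, 20, 42, 1 and 53 were added after their values were seen. The locus and all lists were chosen with earlier results of these data known. Alternatives were another scaling, DESeq2 1.42.0, other filters, the replicate block, 4 libraries per contrast and leaving out each library; removal of GC and mean-count trends and library size without the 12 OCRs that hold over 1% of a library were added after seeing the data.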

Additional observations from a re-analysis of the deposited data

How the results depend on the processing

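None of the 20 tissue-specific or commonly decreased calls changed sign under the 20 alternatives run, and 4 of them (regions 17, 23, 45 and 50) held under all. The filter settings could hardly change a call. Asking for at least 10 counts in 2 or more libraries kept the same 49981 OCRs, and no filter left 50039, adding only OCRs without a count. The majority of higher over lower calls turned for lung against pancreas (2 and 5, but 4 and 1 with library size alone, 2 and 1 after the GC trend was removed, 3 and 1 without lung replicate 1 and 1 and 0 without pancreas replicate 2), for LI against lung (4 and 2, but 3 and 5 with library size alone) and for BM against LI (6 and 11, but 7 and 6 after the GC trend was removed). The count of Rora OCRs that differed among tissues changed when 1 library was left out, and so did the share of all OCRs. Lung against SI, left out of the list that follows, kept more calls at its lowest than any contrast listed. Leave-one-out counts of Rora OCRs called ran from 7 to 19 for BM against LI, 4 to 17 for BM against lung, 6 to 21 for BM against pancreas, 8 to 16 for BM against SI, 1 to 9 for LI against lung, 0 to 3 for LI against pancreas, 2 to 9 for LI against SI, 0 to 7 for lung against pancreas and 8 to 18 for pancreas against SI. The lowest counts came without BM replicate 1 (LI and pancreas), BM replicate 2 (SI), lung replicate 2 (BM, LI and pancreas against lung), LI replicate 2 (SI) and pancreas replicate 1 (SI). Tissue-specific calls ran from 2 (without lung replicate 2) to 10 and commonly decreased ones from 6 (without BM replicate 2) to 13.

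LI against pancreas gave 1 call, and 2 with library size alone, with or without the largest OCRs, with DESeq2's size factors, with the replicate block and after the GC trend was removed, and 3 with DESeq2 or with only the 4 libraries compared. LI against SI gave 5 calls in place of 9 with library size alone and after the GC trend was removed, and 2 with 4 libraries. Lung against pancreas gave 11 with 4 libraries and 3 after the GC trend was removed, in place of 7, and pancreas against SI gave 8 in place of 14 with 4 libraries. Tissue-specific calls numbered 5 with library size alone and 2 with adjusted p-values, in place of 8, and commonly decreased calls 6 with adjusted p-values in place of 12. After the GC trend was removed 1 OCR was lower in both intestinal tissues. The cause of these changes was not tested, and the shares of all OCRs given above for each contrast belong to the TMM fit. Summed levels of lung rose to 1223 CPM with library size alone, and over the 26 OCRs with the nearest TSS at Rora, fewer by construction, they were 655 (BM), 554 (LI), 618 (lung), 631 (pancreas) and 458 CPM (SI).

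Labels number the replicates in every tissue, and differences between replicates 1 and 2 correlated between tissues at -0.164 to 0.193. These values show no strong effect shared by libraries of the same number. They cannot tell whether such libraries shared mice or a batch, so a pairing was not tested. With the replicate block 31 Rora OCRs and 44.1% of all OCRs differed among tissues, and the SI call at region 37 was lost (-0.60, unadjusted p = 0.0546 by the edgeR test). The shallowest library had 10282987 counts, which limits OCRs of few counts such as region 8.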
